A study of Bos taurus with 10 samples.

Results

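CG sites on unplaced sequence of the bovine assembly UMD3.1, the contigs that the assembly could not assign to a chromosome, were analysed in 10 tissues by reduced representation bisulphite sequencing. A member was a CG cytosine deposited under the name chr_defined with at least 8 reads in a tissue. Of 468619 CG sites covered in at least 1 tissue, 5750 were unplaced, 452664 were autosomal and the rest lay elsewhere. Each tissue was represented by 1 library and there were no replicates. The adult tissues were skeletal muscle, uterus and nucleated blood cells of females, mammary gland of a female on day 90 of lactation, and whole testis of a male. Mammary parenchyma, frontal cortex, abomasum (the glandular stomach) and ileum came from juvenile females, and the rumen from a male fetus. The animals were the Hereford cow whose genome served as the cattle reference, or relatives of that cow, so tissue, animal, sex and age cannot be told apart.

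In mammals, DNA methyltransferases add a methyl group to cytosines of CG dinucleotides, and most CGs outside CpG islands are kept methylated in somatic cells. Repeated sequence such as satellite arrays is usually densely methylated in somatic tissue, and satellite DNA is known to carry less methylation in the male germ line of cattle. Contigs that stay unplaced are often made of such repeats, because near-identical copies are hard to order. Whole testis holds germ cells beside somatic cells, and a level in it is an average over both, so fewer methylated cells and less methylation per cell cannot be told apart.

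The sequence around the sites was read from the deposited 5 reference bases at each cytosine, which were joined where they overlapped without a conflicting base. The stretches shown here carry the main patterns of the report. Capitals mark CGs measured in all 10 tissues, the strand is the forward strand of UMD3.1, and the coordinate is that of the joined unplaced sequence. The first 4 stretches belong to the same family, that is, they are linked by shared words of 20 bases, and the fifth stretch belongs to another family. In all of them the mean level was lower in testis than in every other tissue.
chr_defined:7361376-7361457: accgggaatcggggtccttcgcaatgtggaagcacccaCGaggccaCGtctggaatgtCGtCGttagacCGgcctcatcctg
chr_defined:8557452-8557523: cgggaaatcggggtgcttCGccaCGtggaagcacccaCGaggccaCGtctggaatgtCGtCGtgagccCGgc
chr_defined:5306732-5306790: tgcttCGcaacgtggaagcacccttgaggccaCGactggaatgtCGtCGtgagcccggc
chr_defined:5303917-5303980: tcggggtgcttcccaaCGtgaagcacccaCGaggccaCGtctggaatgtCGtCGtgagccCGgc
chr_defined:5726627-5726701: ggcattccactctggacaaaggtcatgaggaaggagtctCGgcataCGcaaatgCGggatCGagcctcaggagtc
Another 3 stretches are shown for contrast. The first held a run in which the lactating mammary gland was lowest, the second a run with mean levels of at most 1.11 % in every tissue, and the third copies of TTAGGG, the repeat unit of vertebrate telomeres.
chr_defined:5879089-5879172: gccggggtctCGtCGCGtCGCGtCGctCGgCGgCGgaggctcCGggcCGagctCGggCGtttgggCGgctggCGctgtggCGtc
chr_defined:1968168-1968217: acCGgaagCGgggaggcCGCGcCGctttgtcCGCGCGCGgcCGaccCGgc
chr_defined:10730733-10730833: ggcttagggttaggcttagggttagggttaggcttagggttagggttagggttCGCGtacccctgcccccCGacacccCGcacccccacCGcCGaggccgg

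The libraries differed in what they covered. A library covered between 114369 and 237294 CG sites, with a median depth of 10 reads in abomasum and up to 33 reads in ileum. Between 1525 unplaced CG sites in ileum and 3556 in abomasum were covered, which was 0.969 % to 1.74 % of the CG sites of a library and 1.12 % to 2.61 % of its CG reads. Testis and abomasum stood apart from the rest. Of the 2897 unplaced sites covered in 1 tissue only, 1620 were seen only in abomasum and 807 only in testis. The strands of the same CG also differed more in testis, where the correlation of the levels of both strands was 0.513 over 514 unplaced CGs, against 0.755 to 0.895 in the other tissues. At the 179 unplaced CGs with both strands covered in all 10 tissues the correlation was 0.859 in testis, within the range of 0.832 to 0.912 in the other tissues. Comparisons between tissues were therefore made mainly at sites covered in all 10 tissues.

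Unplaced CG sites were mostly methylated, whereas autosomal CG sites were mostly not. The mean methylation level of unplaced sites was lowest in testis at 51 %, followed by frontal cortex at 59.8 %, lactating mammary gland at 61.8 %, rumen at 62.9 % and mammary parenchyma at 64.6 %. Ileum (65.1 %), skeletal muscle (65.2 %) and abomasum (65.6 %) came next, and the highest levels were 67.3 % in uterus and 70.5 % in nucleated blood cells. Testis thus stood 8.80 points below the next tissue, whereas neighbours in this order from rumen to uterus were within 2 points of each other. With single libraries the order of such neighbours has no replicate check.

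Sites above a level of 80 % made up 45.7 % ± 9.47 (SD, n = 10 tissues) of unplaced CG sites and 23.8 % ± 2.09 of autosomal CG sites. The difference of 21.9 points was positive in 10 of 10 tissues (exact two-sided sign-flip permutation test over tissues, p = 0.00195, the smallest the test can give, and 0.00391 after Benjamini-Hochberg adjustment over 12 tests). In testis it was only 0.260 points, against 15.9 points or more in every other tissue. Intermediate levels from 20 to 80 % were also more frequent on unplaced sequence, with 34.3 % ± 9.13 against 16.6 % ± 4.42 of sites (difference 17.7 points, 10 of 10 tissues, exact permutation p = 0.00195, adjusted 0.00391). Testis had the most intermediate sites, 51.6 %, and nucleated blood cells the fewest, 23.7 %. Sites below 20 % were rarer on unplaced sequence in each of the 10 tissues (-39.6 ± 5.04 points), the autosomal share being 59.6 % ± 4.54 (exact permutation p = 0.00195, adjusted 0.00391). Against chromosome 27 alone the differences for the highest and the lowest class were smaller, 11.1 and -24.5 points.

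**Figure D1:**
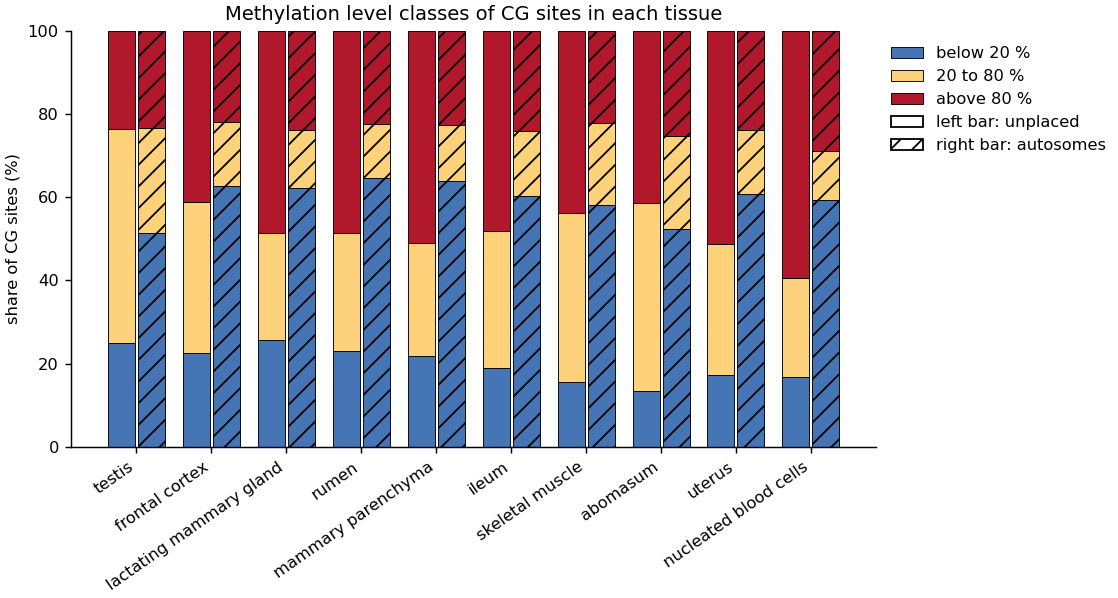
Share of CG sites (%) below 20 %, from 20 to 80 % and above 80 % in each tissue, with unplaced sites in the left bar and autosomal sites in the hatched right bar, ordered by the mean level of unplaced sites. The share above 80 % is larger on unplaced sequence in every tissue but is nearly the same as on the autosomes in testis (23.6 % against 23.3 %).

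A larger share of unplaced than of autosomal sites was in the deeper classes, although the median depth of unplaced sites, 12 to 26 reads, lay within the 10 to 33 reads of all CG sites of a library. Of unplaced sites, 17.2 % ± 4.59 (SD, n = 10 tissues) had 51 to 500 reads, against 9.87 % ± 6.99 of autosomal sites (9 of 10 tissues, with ileum the exception, exact permutation p = 0.00391, adjusted 0.00521). Over 500 reads were found at 1.49 % ± 0.713 of unplaced sites and 0.536 % ± 0.147 of autosomal sites (10 of 10 tissues, exact permutation p = 0.00195, adjusted 0.00391). Neither excess passed the test against chromosome 27 alone, which is the autosome used as an alternative reference (differences of 2.80 and 0.0765 points, adjusted exact permutation p = 0.0645 and 0.663). The first excess was a deficit when the classes were set at 8 to 30, 31 to 300 and over 300 reads (difference -1.36 points, adjusted exact permutation p = 0.552).

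The level of unplaced sites did not follow their number of reads within a tissue in 1 direction. Sites with 8 to 50 reads had a mean level of 63.5 % ± 5.11 (SD, n = 10 tissues), those with 51 to 500 reads 63.2 % ± 8.62 and those with over 500 reads 64.4 % ± 6.80. Neither deeper class differed from the shallow one beyond the spread over tissues (differences -0.313 ± 7.17 and 0.833 ± 4.66 points, adjusted exact permutation p = 0.887 and 0.639). The comparison depended on which sites entered it: over the 723 sites covered in all 10 tissues, sites with a median of 51 to 500 reads stood 12.3 ± 3.78 points above those with 8 to 50, and those over 500 stood 26.4 ± 5.07 points above (both exact permutation p = 0.00195). With both strands of a CG pooled, the sites with 51 to 500 reads instead differed by -6.22 points from the shallow class (adjusted exact permutation p = 0.00391).

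The mean autosomal level over tissues was 32.7 %, 40.3 % and 59.4 % in the 3 depth classes, and the mean distance to the unplaced sites was smaller in the deeper ones. Tissues differed in this: the distance was larger with 51 to 500 than with 8 to 50 reads in testis (25.5 against 13.2 points), uterus (37.1 against 34.3 points) and lactating mammary gland (34.7 against 29.2 points). With 8 to 50 reads, unplaced sites were 30.8 points above autosomal sites (63.5 % against 32.7 %, 10 of 10 tissues, exact permutation p = 0.00195, adjusted 0.00391). With 51 to 500 reads the difference was 22.9 points (9 of 10 tissues, with abomasum at -4.00 points, exact permutation p = 0.00391, adjusted 0.00521). With over 500 reads the levels were 64.4 % and 59.4 %, and the difference of 4.93 points was positive in 9 of 10 tissues (exact permutation p = 0.00391, adjusted 0.00521). Against chromosome 27 the first 2 differences were 18.8 and 10.3 points. The difference over 500 reads rested on 12 to 39 unplaced sites per tissue and did not pass the test when sites were weighted by reads, when strands were pooled or with the other class limits.

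**Figure D2:**
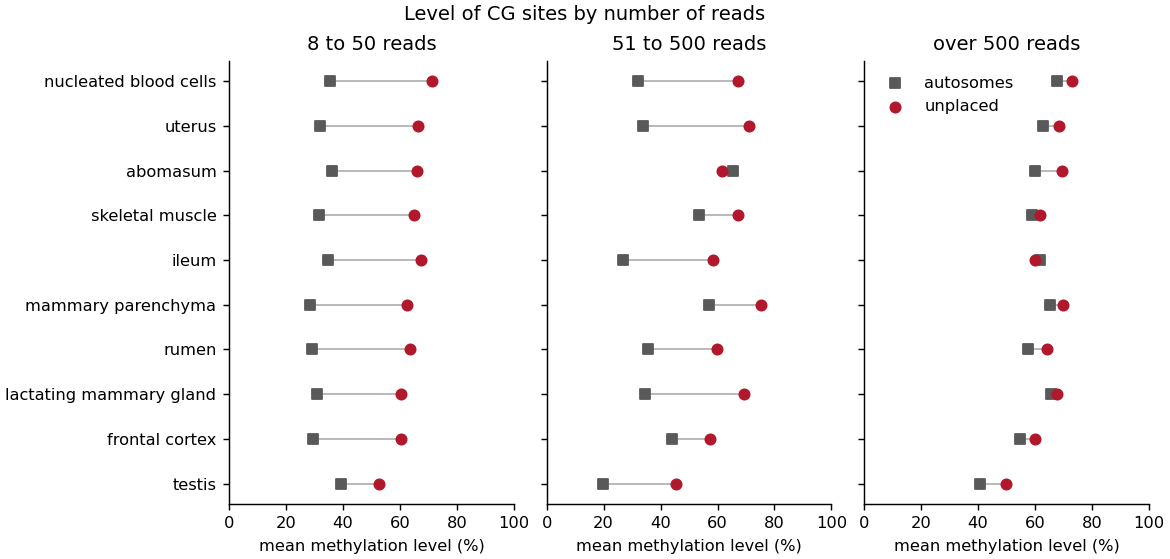
Mean methylation level (%) of unplaced (circles) and autosomal (squares) CG sites in each tissue, in panels for sites with 8 to 50, 51 to 500 and over 500 reads. The gap averages 30.8 points in the first panel and 4.93 points in the last.

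Methylation outside CG, which served as a readout that the choice of CG sites does not use, was low on unplaced sequence in all depth classes. The non-CG level was 1.53 % ± 0.177 (SD, n = 10 tissues) at cytosines with 8 to 50 reads and 1.16 % ± 0.172 with 51 to 500 reads, and it was lower in the deeper class in 10 of 10 tissues (exact permutation p = 0.00195, adjusted 0.00391). With over 500 reads it was 1.16 % ± 0.680, which did not differ from the shallow class beyond the spread (exact permutation p = 0.0996, adjusted 0.12). It was above that of the shallow class in 4 of 10 tissues. The paper reports incomplete bisulphite conversion and advises caution with such low non-CG levels. CGs inside the MspI recognition site CCGG, 18.4 % of unplaced CG sites, had a mean level of 69.8 % against 61.9 % at other unplaced CGs. This difference of 7.88 ± 2.58 points was positive in 10 of 10 tissues. It was not particular to unplaced sequence, since the autosomal difference was 11.6 ± 4.37 points and also positive in 10 of 10 tissues.

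In all 10 tissues, 723 unplaced CG sites (12.6 % of the 5750) were covered, and this share was 11.3 % for autosomal sites. These shared sites had lower levels than unshared ones: the mean was 57.5 % for sites covered in all 10 tissues and 64.6 % for those covered in 1. Over the shared sites, testis was lowest at 46.9 %, then frontal cortex at 53.1 %, and nucleated blood cells were highest at 64.0 %. The other tissues lay between 56.8 % in skeletal muscle and 60.4 % in ileum. Testis differed by -11.8 points from the mean of the 9 others (58.7 % ± 3.06, SD over 9 tissues) and lay below every one of them, and the exact permutation test of 1 tissue against 9 cannot give less than its p of 0.1. At the autosomal shared sites the difference was -4.54 points.

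Site by site, testis was the lowest of the 10 tissues at 294 of 723 unplaced sites (40.7 %), where the background on the autosomes was 16.2 %. Frontal cortex was lowest at 79 unplaced sites (10.9 %, background 3.92 %). Blood was highest at 192 (26.6 %, background 19.8 %). The levels of tissues went together across the 723 sites: Pearson's r was 0.916 to 0.970 for pairs without testis and 0.838 to 0.916 for pairs with testis. These correlations are across sites that share libraries and reads, and are given as a description.

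The low level in testis was found at sites that were methylated in the other tissues. At 199 unplaced sites below 20 % in the others, testis had 5.23 % against 4.77 %, a level that leaves little room for a lower value. At 143 sites from 60 to 80 % in the others, testis had 47.5 % against 70.1 %, and it was lowest at 86 of them (60.1 %, against 47.6 % of autosomal sites of that class). At 310 sites above 80 % in the others it had 77.4 % against 91.3 %, and it was lowest at 172 (55.5 %, against 48.7 %). The autosomal differences in the same 3 classes were -0.297, -15.1 and -12.5 points.

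The difference was also larger at sites with more reads. Sites with a median of 8 to 50 reads over tissues stood at 45.2 % in testis and 53.6 % in the others (461 sites, -8.44 points). Sites with 51 to 500 reads stood at 49.3 % and 66.9 % (250 sites, -17.5 points), and those with over 500 reads at 60.4 % and 81.3 % (12 sites, -20.9 points). Testis was lowest at 27.1 %, 63.6 % and 83.3 % of the sites of the 3 classes, and at 11.7 %, 39.2 % and 57.8 % of autosomal sites. On the autosomes the differences were -3.30, -10.9 and -14.6 points. With the other class limits the deeper unplaced classes were at -12.1 and -13.4 points, and the difference between depth classes was not tested, since sites are not replicates.

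**Figure D3:**
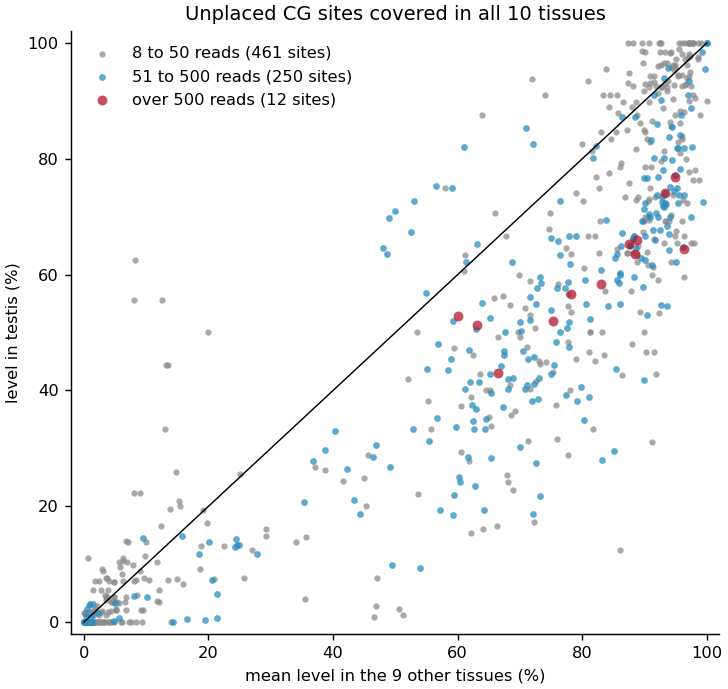
Methylation level (%) in testis against the mean level (%) of the 9 other tissues at the 723 shared unplaced CG sites, coloured by the median number of reads, with the line of equal levels. Sites with over 500 reads lie below the line, as do most methylated sites with 51 to 500 reads.

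Single sites were compared between libraries by Fisher's exact test on reads, with Benjamini-Hochberg adjustment over all cytosines of a pair, and a DMC needed a q under 0.01 together with levels at least 25 points apart. Such a test compares 2 libraries and covers counting error only. In at least 1 of 45 pairs of tissues, 254 of the 723 unplaced sites were DMCs (35.1 %, background over all CG sites 19.8 %). Pairs with testis had 39 to 140 unplaced DMCs with a median of 103, and the other 36 pairs had 2 to 54 with a median of 13. Testis was lower than nucleated blood cells at 140 sites (19.4 %, background 9.63 %), than mammary parenchyma at 117 (16.2 %, background 5.66 %), than uterus at 103 (14.2 %, background 5.7 %) and than ileum at 103 (14.2 %, background 6.65 %). It was lower than lactating mammary gland at 100 (13.8 %, background 6.48 %), skeletal muscle at 73 (10.1 %, background 4.23 %) and rumen at 70 (9.68 %, background 3.37 %). The fewest were lower than abomasum, 62 (8.58 %, background 2.79 %), and than frontal cortex, 34 (4.70 %, background 2.69 %). Testis was higher at 0 to 13 sites in these pairs. The background held more sites of low level. Of shared autosomal sites, 65.1 % were below 20 % in the mean of the tissues other than testis, against 27.5 % of the unplaced sites. A site near 0 % in another tissue cannot be 25 points lower in testis. Shares of DMCs were not compared within classes of level, so the part of level in these excesses was not tested.

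A site that was a DMC of a tissue against each of the 9 others, always in 1 direction, was called a tDMC. Testis had 16 lower tDMCs among unplaced sites (2.213 %, background 0.54 %) and 0 higher ones (background 0.0151 %). This background, too, held more sites of low level than the unplaced sites. Of the 16, 2 were among the 461 sites with 8 to 50 reads, 13 among the 250 with 51 to 500 and 1 among the 12 with over 500. The lactating mammary gland had 3 lower tDMCs (background 0.0415 %), the abomasum had 1 (background 0.017 %) and the other 7 tissues had none among unplaced sites, where their autosomal shares were at most 0.0742 %. The count for testis was 7 at a difference of at least 40 points and 5 with reads thinned to the lowest coverage.

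Of the 5 tDMCs with the largest gap between testis and the nearest tissue, 3 lay in the family of the first 4 stretches shown above. That family holds 155 of the 723 shared sites. Of these 3, the neighbours 7361434 and 7361437 lie on the same strand with 107 testis reads each, so they are not separate loci. At position 7361437, in the first of these stretches, testis had a level of 28.04 % on 107 reads (95 % Wilson interval 20.4 to 37.2 %), and the 9 others ranged from 71.8 % in ileum to 87.5 % in rumen with a median of 84.4 %. At its neighbour 7361434 testis had 18.7 % on 107 reads, and the others had 61.5 % in ileum to 78.2 % in uterus. At both sites the interval of testis lay below those of all other tissues. At position 9570602 testis had 29.5 % on 61 reads (interval 19.6 to 41.9 %) and the others 75.0 % to 93.5 %. At position 10041737 testis had 41.8 % on 91 reads and the others 84.7 % to 92.7 %. At position 5306779, in the third of these stretches, testis had 17.3 % on 81 reads and the others 58.1 % in ileum to 88.4 % in mammary parenchyma. Frontal cortex, which was second lowest over all shared sites, was within the range of the other tissues at all 5 tDMCs. The reverse cytosine of the CG at 7361437 had 60.8 % in testis, and 76.8 % in frontal cortex to 88.2 % in nucleated blood cells. That of 7361434 had 50.3 % in testis, and 56.3 % in frontal cortex to 78.5 % in nucleated blood cells. That of 10041737 had 53.0 % in testis and 80.7 % to 98.1 % in the others. Testis was thus lowest on both strands of these CGs, with a smaller gap to the next tissue on the reverse strand.

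Testis was the lowest tissue at each of the 5 shared sites with the most reads. At position 7551894 (median 1498 reads) testis had 63.5 %, frontal cortex 68.2 % and the other 8 tissues 87.3 % to 93.3 %. At position 7551901, 7 bases further, testis had 43.0 %, frontal cortex 48.0 % and the others 63.7 % to 76.0 %. Testis and cortex were thus both apart from the other tissues at these sites, on 1429 and 1756 reads at the latter. Over the run of 6 sites that holds both positions, frontal cortex was lowest at 65.4 % and testis next at 67.0 %. At position 4276707 (median 857 reads) testis had 66.0 %, frontal cortex 76.4 % and the others 86.3 % to 93.3 %. At position 4276717 the values were 76.8 % in testis, 89.0 % in frontal cortex and 91.4 % to 100 % in the others. At position 3656822 testis had 56.7 %, nearly equal to lactating mammary gland with 56.8 % on 81 reads, frontal cortex 59.9 %, and the others 76.6 % to 100 %.

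A level of 100 % at these sites could coincide with missing reads. At position 4276717 ileum had 735 reads, all methylated, where the site 10 bases before it had 827. At position 3656822 skeletal muscle was at 100 % on 674 reads, and no neighbour was compared there. Among unplaced sites with over 50 reads and a neighbouring covered CG within 10 bp on the same strand, the share with under 0.95 of the reads of that neighbour was 47.2 % at a level of 100 % and 5.06 % at a level of 80 % to under 100 % (medians over tissues, from 52 and 910 site values in all). Tissues differed in the share at 100 %, which was 0 % of 4 sites in testis and 16.7 % of 12 in nucleated blood cells. Sites at exactly 100 % with over 50 reads were few, 6 to 17 per tissue, and leaving out the shared sites that were at 100 % on over 50 reads in any tissue left 694 sites with a difference of -11.8 points between testis and the others. The origin of the missing reads was not tested.

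Covered sites lay in short runs, as fragments between MspI sites do. A run was a chain of CG sites with at most 100 bp between neighbours. The 5750 unplaced sites formed 894 runs, of which 408 had at least 5 sites, and the largest had 74 sites while the longest spanned 692 bp. The 723 shared sites formed 60 runs of at least 5 sites, which held 590 of them. By the mean of the 9 tissues other than testis, 12 of these runs were below 20 %, 24 from 20 to 80 % and 24 above 80 %, and the SD of levels within a run (median 9.89 points) was smaller than that between runs (33.3 points).

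Testis was lowest in 34 of the 60 runs (56.7 %, background over autosomal runs 25.8 %). It was lowest in 1 of 12 runs below 20 % (8.33 %), in 20 of 24 runs from 20 to 80 % (83.3 %) and in 13 of 24 above 80 % (54.2 %), where the autosomal shares were 10.7 %, 55.9 % and 47.4 %. The mean differences were of -1.23, -20.02 and -12.4 points from the others. In the runs below 20 % the others had a mean of 4.5 %, which leaves little room for a lower value. Frontal cortex followed testis as second lowest in 29 runs (48.3 %, against 11.4 % of autosomal runs), and nucleated blood cells were highest in 29 (48.3 %, against 33.4 %). Testis stood at least 25 points below every other tissue in 1 run (1.67 %, background 1.95 %), a share near the background, and at least 25 points above every other in none (background 0.162 %).

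The run with testis at least 25 points below every other tissue was that at positions 7361414 to 7361446, with 9 sites. Its mean level was 44.6 % in testis, 70.3 % in frontal cortex and 75.0 % to 83.5 % in the other tissues. The strands differed in testis, with 24.0 % on the forward strand (4 sites) and 61.1 % on the reverse strand (5 sites), and testis was the lowest tissue on both, followed by ileum at 65.9 % on the forward and frontal cortex at 68.8 % on the reverse strand. In the run at 5306690 to 5306779 testis had 32.9 %, frontal cortex 56.4 % and the others 67.4 % to 76.0 %. In the run at 5726667 to 5726707 testis had 65.6 %, frontal cortex 88.7 % and the others 92.8 % to 95.9 %. These 3 runs were chosen for the largest gap of testis below the nearest tissue, so testis being lowest follows from the choice. Frontal cortex was next in all 3, and the remaining tissues spread over less than 10 points. A run of 18 sites at 10041595 to 10041770 had 50.6 % in testis, 70.3 % in frontal cortex and 77.0 % to 87.9 % in the others.

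Other large runs differed in another way or did not differ. The run with the most shared sites, 26 at positions 5879099 to 5879176, had 6.94 % in lactating mammary gland and 17.9 % in rumen as the lowest levels, and 40.9 % in ileum and 41.4 % in testis as the highest. Testis and ileum differed by only 0.458 points there. This run held 2 of the lower tDMCs of the lactating mammary gland. At position 5879116 that tissue had 0 methylated of 35 reads (exact level 0 %, Wilson interval up to 9.89 %) and the other tissues 58.7 % to 91.6 %, and at 5879122 it had 5.71 % against 54.5 % to 89.2 %. Both are on the forward strand, where the 9 sites of the run had a mean of 4.08 % in lactating mammary gland and 36.6 % to 79.4 % in the others. On the reverse strand, with 17 sites, that tissue had 8.45 %, above skeletal muscle (1.75 %), frontal cortex, uterus, mammary parenchyma and rumen, and testis was highest at 24.3 %. The reverse cytosine at 5879117 had 8.33 % in lactating mammary gland and in skeletal muscle, and 3.45 % in frontal cortex. In this run the low level of the lactating gland was thus found on 1 strand. That tissue was also lowest in nearby runs at 5879396 to 5879440 (11.5 %), 5879688 to 5879726 (1.73 %) and 5880206 to 5880231 (4.80 %). The next lowest there were rumen (16.2 %), testis (8.11 %) and rumen (13.4 %). Most sites of the last of these runs are on the reverse strand, and levels by strand were not compared there. The abomasum tDMC at 9384141 had 58.3 % on 187 reads in that tissue against 87.2 % to 96.9 % elsewhere. The runs at 116957 to 117066, at 1968170 to 1968215 and at 406697 to 406739, with 20, 20 and 18 sites, stayed at or below 10.1 %, 1.11 % and 3.50 % in every tissue.

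**Figure D4:**
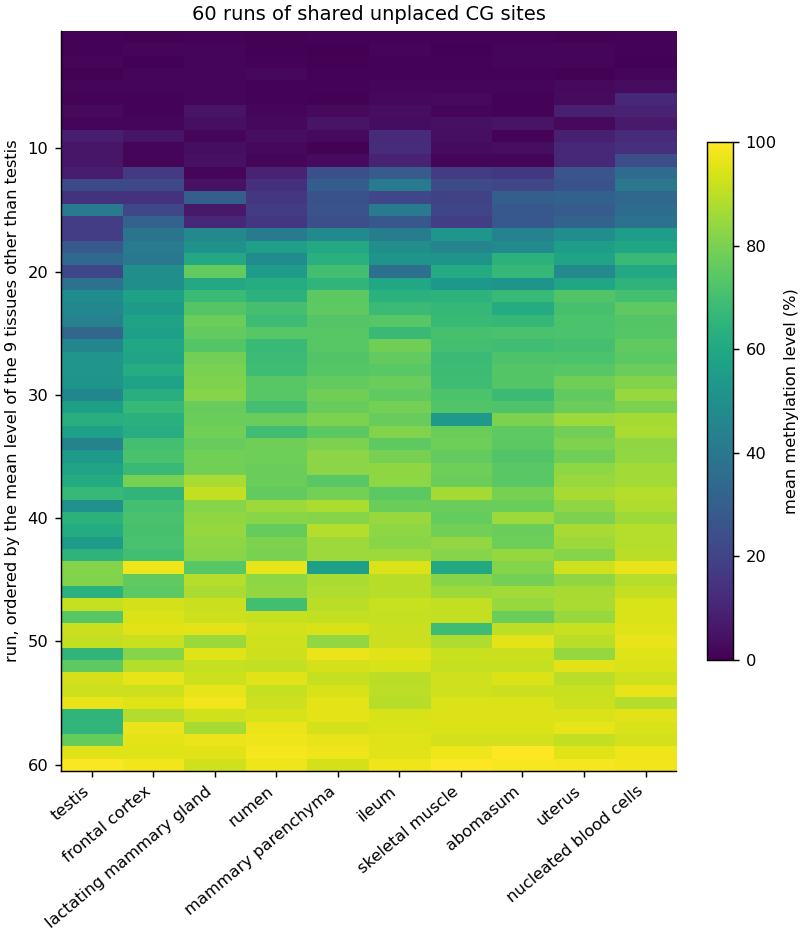
Mean methylation level (%, colour) of the 60 runs of shared unplaced CG sites (rows, ordered by the mean of the 9 tissues other than testis) in each tissue (columns, ordered by the mean level of unplaced sites). Testis and then frontal cortex are darker than the other columns in most runs of intermediate level.

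Unplaced sequence was rich in repeats within the covered bases. Of 773 unplaced stretches of at least 20 bases, 46.4 % held a word of 20 bases that was seen elsewhere in the covered sequence of the genome on either strand, against 11.96 % of 64863 autosomal stretches. Such words were found on other unplaced stretches for 39.5 % and on placed chromosomes for 42.2 %, so copies of these words were also in the placed assembly. The telomere-like letters CCCTAACCCTAA, searched on both strands, were in 4 of 773 unplaced stretches (0.517 %) and in 2 of 64863 autosomal ones (0.00308 %). These sequence classes were chosen after the levels had been seen and are given without a test.

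Shared unplaced sites on repeated words had a lower level in testis than in the other tissues, more so than sites on words seen once. At 302 sites on repeated words testis had 50.7 % and the others 68.3 % ± 4.74 (SD over 9 tissues), a difference of -17.6 points, and testis was lowest at 179 of them. At 355 sites on words seen once testis had 44.1 % and the others 49.9 % ± 1.89, a difference of -5.78 points, and testis was lowest at 78. At 66 sites in stretches shorter than a word the difference was -17.5 points. On the autosomes the difference was -14.2 points at repeated and -1.94 points at single words. The same contrast was thus found on both, and 41.8 % of shared unplaced but 16.9 % of shared autosomal sites were on repeated words.

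Sites of like level were also compared, because repeated words were more methylated. Among sites above 80 % in the other tissues, the difference of testis from the others was -8.32 points on unplaced single words (161 sites) and -20.2 points on unplaced repeated words (120 sites). The autosomal values were -8.33 and -20.4 points. Among sites from 60 to 80 %, the differences were -17.2 (25 sites) and -23.6 points (106 sites) on unplaced sequence and -4.58 and -22.7 points on the autosomes. From 20 to 60 % the unplaced order was the other way, with -16.8 points at single (14 sites) and -12.3 points at repeated words (47 sites). Below 20 % the unplaced values were -0.299 (155 sites) and 6.26 points (29 sites). Most of the 17 reverse-strand sites of the run at 5879099 to 5879176 are on repeated words. Testis had 24.3 % there, against a mean of 8.13 % in the others. The 9 forward sites of this run had 73.6 % against 56.8 %. Sites of 1 run are not separate loci, and the values for repeated words were not computed without this run. The autosomal values were -4.11 and -16.5 points from 20 to 60 %, and -0.231 and -0.913 points below 20 %. Unplaced and autosomal sites thus had nearly the same value in the highest class once the word was taken into account, and differed at single words from 60 to 80 %. Depth moved with these classes: within 51 to 500 reads the unplaced differences were -15.6 points at single and -17.9 points at repeated words, and within 8 to 50 reads -3.57 and -17.1 points. The part of depth in the contrast was not tested.

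**Figure D5:**
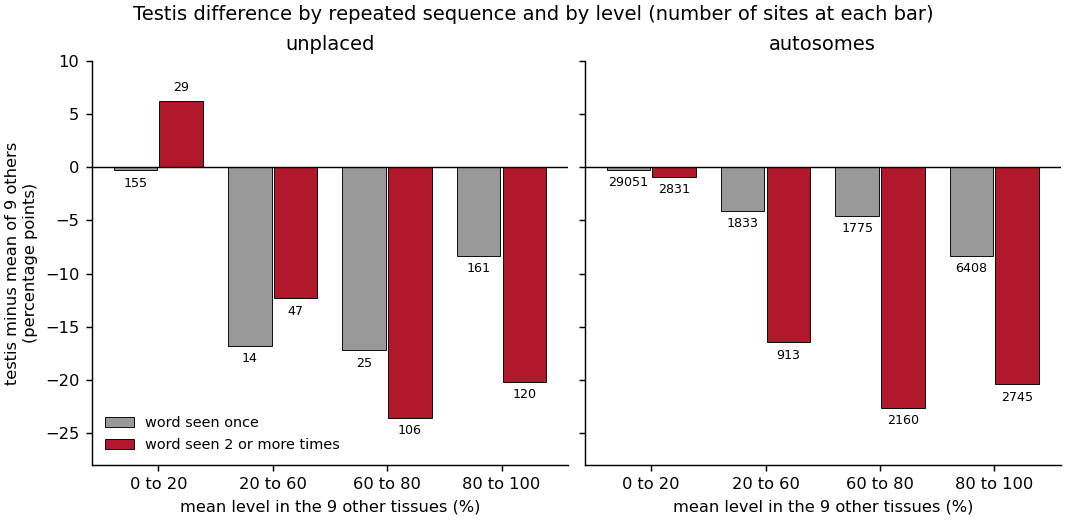
Testis minus the mean of the 9 other tissues (percentage points) at shared CG sites on words of 20 bases seen once (grey) or 2 or more times (red), by the mean level (%) of the 9 others, for unplaced and autosomal sites, with the number of sites at each bar. In the class from 80 to 100 % the bars stand at -8.32 and -20.2 points on unplaced sequence and at -8.33 and -20.4 points on the autosomes.

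Stretches joined by shared words formed 18 families with 303 stretches, 1727 CG sites and 277 shared sites. The largest had 122 stretches but only 6 shared sites, and its level over all its sites was 71.2 % in testis and 78.1 % in skeletal muscle to 91.2 % in lactating mammary gland. The second, to which the first 4 stretches shown above belong, had 35 stretches and 155 shared sites, with 50.5 % in testis, 62.7 % in frontal cortex and 70.7 % to 79.0 % in the others. Testis was lowest at 113 of these 155 sites. The third (30 stretches, 54 shared sites) had 46.5 % in testis, 51.6 % in frontal cortex and 63.7 % to 72.2 % in the others. The fourth (28 stretches, 23 shared sites), which holds the stretch at 5726627, had 64.3 %, 71.3 % and 83.1 % to 89.2 %. The telomere-like stretch shown above belongs to a family of 18 stretches, most of which do not hold these letters, as only 4 unplaced stretches do. The 6 shared sites of this family are 1 run, at 10730786 to 10730825. Testis had 61.4 % there and the others 74.4 % to 87.2 %. All of these named families had testis lowest. Over shared sites the largest and the second to the fourth had frontal cortex next, and the largest had 75.2 % in testis, 89.0 % in frontal cortex and 91.0 % to 95.5 % in the others. A smaller family with 7 shared sites did not have testis lowest (8.11 %, against 1.73 % in lactating mammary gland). Among families without shared sites, testis was lowest in some but not all.

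The stretch with the most reads of any tissue had unlike levels on its strands. At positions 5303933 to 5303969 of the forward strand, 5 CGs had a median of 15418 reads in testis, 1745 in ileum, 1481 in frontal cortex and 812 in skeletal muscle, and 219 to 484 in the other tissues. Their mean level was 0.503 % in testis, 3.80 % in ileum, 5.05 % in frontal cortex, 9.13 % in skeletal muscle and up to 32.8 % in mammary parenchyma. The 3 tissues with the most reads thus had the 3 lowest levels, but lactating mammary gland (8.28 % on 219 reads) and abomasum (8.63 % on 356) were also below skeletal muscle. At 5303933 the number of methylated reads was 59 of 15429 in testis, 76 of 1745 in ileum and 125 of 253 in mammary parenchyma, and it ranged from 22 in lactating mammary gland to 138 in nucleated blood cells. On the reverse strand of the same stretch, 6 CGs had a median of 202 reads in testis and 8 to 35 elsewhere. Their mean level was 32.6 % in testis and 56.4 % to 81.5 % in the other tissues. When sites were weighted by reads, the difference of testis from the others was -41.1 points over the 723 sites and -18.0 points without these 5 forward sites.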

How the data were processed

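Genomic DNA of 10 bovine tissues, 1 library each, was digested with MspI, size-selected, treated with bisulphite and sequenced. After trimming, the authors mapped the reads to UMD3.1 with a pipeline built on SOAPaligner and kept those with a unique position. Cytosines under 8 reads were left out. For each of the rest the authors deposited 2 values used here: the raw count of reads per strand, and the methylation level as a fraction. Columns of a further read number, a p-value and its FDR were deposited too and were not used here. The methods give no removal of PCR copies, so intervals and tests cover counting error only.

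Methylated reads were the level multiplied by the reads, which gave whole numbers. Levels were averaged over sites without weighting. The names of single unplaced contigs were not used here, so a run may touch a border between contigs. Exact sign-flip permutation over the 10 tissues (1024 arrangements) was used for differences within tissues, an exact permutation for 1 tissue against 9, and Fisher's exact test for DMCs, over all cytosines covered in all 10 tissues. On 20000 simulated sites, 35 of 100 sites changed by 60 points and 9 of 100 changed by 30 points were called in all 9 pairs. Named were the 5 shared sites with the most reads, the tDMCs with the largest gaps (at least 20 reads everywhere), the 5 runs with the most sites and the 3 with the largest gap of testis. The members and these lists were chosen with earlier results of these data known, and the deepest stretch, the strands, the words and the families were chosen after their values were seen. The software was SciPy 1.17.1, Numba 0.67.0, pandas 2.3.3, NumPy 2.4.6 and matplotlib 3.10.9 on Python 3.11.15, seeded with 1. The alternatives tried were minimums of 10 and 20 reads, weighting by reads, pooled strands, other class limits and references, leaving out testis or abomasum, a difference of 40 points, thinned reads, Benjamini-Yekutieli adjustment, all sites covered in both tissues of a pair, and other gaps and sizes of runs.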

Additional observations from a re-analysis of the deposited data

Results flagged for a closer look

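Of the values by tissue, 3 stood apart from those of the other tissues by Dixon's criterion for 10 values, out of 24 ends of 12 measures checked. The values come from libraries of different tissues and not from replicates, and chance passes about 1 group in 20. The share of unplaced CG sites above a level of 80 % was 23.6 % in testis, with a gap of 17.5 points to the next tissue. The abomasum covered 3556 unplaced CG sites, 1020 more than the next library, and had 2.61 % of its CG reads on unplaced sequence. Abomasum was also the shallowest library, with a median of 12 reads at its unplaced CG sites, and the part of depth or fragment size in its number of sites was not tested.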

How the results depend on the processing

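Of 149 values under alternatives, 117 kept their side of the threshold or, without one, stayed within 1 SD over tissues (for counts, within 1.5 times). All 3 shares by level and the excess of unplaced levels with 8 to 50 and 51 to 500 reads kept their direction and side of the threshold under every alternative run, but against chromosome 27 these were 11.1 (above 80 %), 13.3 (20 to 80 %), -24.5 (below 20 %), 18.8 and 10.3 points. Over 500 minus 8 to 50 reads was 5.82 points with at least 20 reads. Unplaced minus autosomal levels over 500 reads were 3.48 points weighted by reads, 3.81 with strands pooled and 3.14 with the other class limits. The shares with 51 to 500 and over 500 reads differed by 2.80 and 0.0765 points from chromosome 27, and the former by -1.36 with the other limits. The level of 51 to 500 minus 8 to 50 reads was -6.22 points with strands pooled, -8.62 with the other limits and 12.3 over shared sites, where that of over 500 was 26.4.

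Testis minus others at shared sites was -19.2 points with at least 20 reads, -41.1 weighted by reads, -20.1 with at least 50 reads in every tissue and -15.2 as means per run. After the data were seen, it was also computed without repeated words (-7.62), weighted without the deepest forward sites (-18.0), and by strand (-12.5 forward, -11.1 reverse). Its deeper classes were -12.1 and -13.4 points with the other limits. Lower tDMCs numbered 7 at 40 points and 5 with thinned reads, and the median per pair fell from 100 to 34 and 39. Of 35 values of the named tDMCs, 4 were no longer called, 3 of them with thinned reads and 1 under Benjamini-Yekutieli adjustment. Runs with testis at least 25 points below every other tissue numbered 2 with a gap of 50 bp or at least 3 sites, and 0 with a gap of 500 bp or at least 10 sites. With at least 3 sites, testis was lowest in 53 of 87 runs, with at least 10 in 10 of 24, and with at least 20 reads in 20 of 23. The cause of these shifts was not tested. No paired analysis was possible because each tissue has 1 library and the labels give no replicate numbers. A level on 8 reads moves in steps of 1 read in 8, and 5.75 % to 17.8 % of the unplaced sites of a tissue stood at this minimum.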

Other observations

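Over all unplaced CG sites covered in testis and 1 other tissue, 1051 to 1244 per pair with the 723 shared ones included, the level in testis differed by -16.7 points from nucleated blood cells, by -14.0 from ileum and by -7.66 from frontal cortex, and between these from the other tissues. The autosomal differences of the same pairs ranged from -7.28 to -2.46 points. Testis was lower at 39 sites (frontal cortex) to 154 sites (nucleated blood cells) of a pair and higher at 1 to 13. Over the 328 to 521 sites of a pair that were not among the 723, testis minus the other tissue was -9.99 points for frontal cortex to -19.6 points for abomasum and negative for each of the 9.

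The strands of the same CG differed by at least 25 points at a larger share of unplaced than of autosomal CGs. Over the CGs with both strands covered in all 10 tissues, this share was 6.70 % in lactating mammary gland to 17.9 % in abomasum for the 179 unplaced CGs, and for the 12912 autosomal CGs 2.51 % to 5.197 % in the tissues other than testis and 4.49 % in testis. Over all CGs with both strands covered in a library, it was 31.9 % in testis on unplaced sequence and 20.1 % on the autosomes, against at most 20 % and 11.1 % in any other tissue. The cause was not tested.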
